A study of Mus musculus with 17 samples.

Results

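High-CpG promoters at which nucleosome-sized DNA fragments covered the transcription start site in both sperm and embryonic stem (ES) cells are described here. Each promoter was given a start-site ratio, the mean fragment signal within 200 bp of the start site over the mean of the flanks, 1000 to 2000 bp away on each side. A promoter was a member when this ratio was 0.60 or more in the sperm library and in the ES cell library, with a flank sum of 220 or more, about 10 fragments, in each. The rule kept 544 promoters of the 10262 that were deep enough, which themselves came from 10576 high-CpG promoters among 16493 classed start sites. The other deep promoters were 580 covered in sperm only, 1388 covered in ES cells only and 7750 under the limit in both. The members were thus chosen by their signal in the sperm and ES cell libraries of the standard digestion, and those values describe the members and carry no test.

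The study digested chromatin with micrococcal nuclease (MNase), which cuts DNA that no protein holds, and sequenced the fragments as pairs, to map nucleosomes and other bound proteins. Mature sperm were those that swam up from cut cauda epididymis and vas deferens, taken from C57/B6J mice aged 10 weeks, and were fixed in 1% formaldehyde for 15 min. The number of animals behind each library, and whether sperm of several mice were pooled, was not stated in the labels. The ES cells were the single line E14, of 129 X Ola background, grown in serum and LIF without feeder cells, and crosslinking is not described for them. The standard digestion gave far less MNase per cell to sperm than to ES cells, for 5 min at 37 °C, and both libraries are supernatants of a 5000 g spin. The ES cell nuclei were also rotated in the cold for hours before that spin. The remaining 12 libraries are sperm from the same kind of mice in 3 MNase titrations: 0.5, 2, 10 and 50 units without separation (unspun), and 1, 5, 20 and 100 units for the supernatant and for the pellet. Every group holds 1 library, so no value has a replicate, and the ranges in parentheses after a ratio are exact binomial 95% intervals, which cover counting error only. The standard sperm and ES cell tables hold 1447953 and 2019693 fragment equivalents, and the titration tables hold 18980 to 75455.

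In most somatic and stem cells, a promoter dense in CpG dinucleotides holds a gap in its nucleosome array over the start site, where the transcription machinery and transcription factors bind. In mature sperm most histones have been replaced by protamines, small arginine-rich proteins that pack the paternal genome tightly, and a minority of nucleosomes is retained. MNase releases loosely held nucleosomes early and destroys them with further digestion, so the fragments recovered depend on the dose.

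The promoters of 6 members and of 2 deep promoters under the limit in both libraries are shown to give the letters behind the named genes. They were taken from the members with the highest ratios, then the deepest, and from the deepest promoters under the limit, where the gene has a single RefSeq window. Each line gives the 250 bases before the RefSeq start, 5′ to 3′, in GRCm38.p6, with every CG in capitals. The members are Lamtor4 (chr5:138255232-138255481, plus strand), Cd302 (chr2:60284485-60284734, minus strand), Fgfbp3 (chr19:36919600-36919849, minus strand), Gpr85 (chr6:13839943-13840192, minus strand), Zfp58 (chr13:67500523-67500772, minus strand) and Ndufs4 (chr13:114388095-114388344, minus strand). The promoters under the limit are Hjurp (chr1:88277580-88277829, minus strand) and Tmem167 (chr13:90089417-90089666, plus strand).
Lamtor4: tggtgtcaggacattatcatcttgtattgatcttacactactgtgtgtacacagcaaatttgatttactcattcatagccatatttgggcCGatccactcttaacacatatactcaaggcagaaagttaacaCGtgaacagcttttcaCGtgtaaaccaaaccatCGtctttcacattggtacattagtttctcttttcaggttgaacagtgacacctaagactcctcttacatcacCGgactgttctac
Cd302: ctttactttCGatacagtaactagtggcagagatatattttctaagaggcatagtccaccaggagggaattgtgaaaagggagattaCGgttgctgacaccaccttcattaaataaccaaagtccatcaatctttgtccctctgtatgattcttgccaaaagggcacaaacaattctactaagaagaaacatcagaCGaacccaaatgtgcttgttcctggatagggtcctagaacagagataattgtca
Fgfbp3: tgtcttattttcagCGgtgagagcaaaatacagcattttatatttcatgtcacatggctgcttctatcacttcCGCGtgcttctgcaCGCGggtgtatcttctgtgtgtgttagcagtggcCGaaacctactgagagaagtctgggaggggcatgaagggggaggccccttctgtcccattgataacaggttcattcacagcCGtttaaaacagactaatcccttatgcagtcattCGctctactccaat
Gpr85: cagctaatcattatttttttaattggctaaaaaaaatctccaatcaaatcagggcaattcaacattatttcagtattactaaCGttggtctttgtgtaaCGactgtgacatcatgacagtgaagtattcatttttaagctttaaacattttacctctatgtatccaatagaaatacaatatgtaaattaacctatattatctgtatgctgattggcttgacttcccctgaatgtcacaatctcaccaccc
Zfp58: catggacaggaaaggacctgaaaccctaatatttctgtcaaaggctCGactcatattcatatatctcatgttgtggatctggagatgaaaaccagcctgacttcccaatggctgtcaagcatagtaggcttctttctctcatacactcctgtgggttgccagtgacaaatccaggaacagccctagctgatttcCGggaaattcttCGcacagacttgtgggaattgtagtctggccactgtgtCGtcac
Ndufs4: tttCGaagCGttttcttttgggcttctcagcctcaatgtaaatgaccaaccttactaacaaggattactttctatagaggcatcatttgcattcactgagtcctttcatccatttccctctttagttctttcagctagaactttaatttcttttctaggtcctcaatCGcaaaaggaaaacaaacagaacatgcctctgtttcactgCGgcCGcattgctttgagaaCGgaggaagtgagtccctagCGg
Hjurp: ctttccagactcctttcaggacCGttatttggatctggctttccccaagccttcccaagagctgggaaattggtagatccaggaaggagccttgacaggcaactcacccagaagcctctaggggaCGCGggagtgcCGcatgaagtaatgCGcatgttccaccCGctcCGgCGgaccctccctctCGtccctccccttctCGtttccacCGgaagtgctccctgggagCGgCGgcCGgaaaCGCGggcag
Tmem167: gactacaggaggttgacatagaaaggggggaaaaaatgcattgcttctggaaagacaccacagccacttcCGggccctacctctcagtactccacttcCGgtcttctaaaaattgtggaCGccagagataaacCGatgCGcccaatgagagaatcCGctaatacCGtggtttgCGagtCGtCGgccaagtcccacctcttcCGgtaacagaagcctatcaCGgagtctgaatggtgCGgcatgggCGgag

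The members' stretches hold 2 to 8 CG dinucleotides in 250 bases, and those of Hjurp and Tmem167 hold 16 and 14. These 6 members do not stand for the class. Over the full 300-base windows, which reach 50 bases past the start, their GC content was 33.3% to 46.7%, below the lower quartile of 50.0% among members with a sequence. Among the highest-ratio members named further on, Strbp, Golga5 and Prlr have more than 1 RefSeq window and are not printed. Their windows averaged 66.3% GC with 33.5 CpG for Strbp and 53.3% GC with 20 CpG for Golga5. Those of Prlr averaged 43.4% GC with 4.67 CpG. Hjurp, which encodes the chaperone of the centromeric histone, had a start-site ratio of 0.268 in sperm and 0.0739 in ES cells. Tmem167, a membrane protein gene, had 0.0329 in sperm and 0.0866 in ES cells. The deposited start sites are in mm9, and whether each RefSeq start is the same base was not checked. The Lamtor4 and Cd302 stretches are thus RefSeq promoters of genes whose deposited start site is classed as high-CpG, and they hold 5 and 3 CG dinucleotides in these 250 bases.

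Signal over the members' start sites was close to that of their flanks in both cell types. Pooled over the 544 promoters, the ratio was 0.988 in sperm (0.946 to 1.03) and 1.12 in ES cells (1.09 to 1.16). Over the 7750 promoters under the limit it was 0.145 in sperm and 0.190 in ES cells. The members' median was 0.885 in sperm (quartiles 0.728 and 1.24, highest 4.71) and 0.989 in ES cells (quartiles 0.756 and 1.43, highest 6.03), whereas the median of all deep promoters was 0.160 in sperm and 0.231 in ES cells. Members made up 5.30% of the deep promoters. Of the members, 224 had a ratio of 1 or more in sperm, 268 in ES cells and 129 in both. The ratio was higher in sperm than in ES cells at 219 members and lower at 325.

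Single members rest on few fragments, so the class is better described than any 1 promoter in it. The median member had 4.23 fragment equivalents within 200 bp of its start site in sperm and 7.14 in ES cells. Its flanks held 21.7 in sperm, against a median of 30.4 over all deep promoters, and 34.9 in ES cells, against 43.9. How far low flanks brought promoters into the class was not tested. The lower bound of the interval lay under 0.60 at 495 members in sperm and at 402 in ES cells, and reached 0.60 in both libraries at 22. Just inside the limit, among members with 30 or more flank fragments in both libraries, were Zfp143 (0.601 in sperm, 0.752 in ES cells), Krt26 (0.764 in sperm, 0.603 in ES cells) and Eef1akmt1 (0.604 in sperm, 0.633 in ES cells). Just outside were Pappa (0.598 in sperm, 1.02 in ES cells), Gltpd2 (0.598 in sperm, 0.899 in ES cells) and Pcdhb18 (0.868 in sperm, 0.599 in ES cells). Across all 10262 deep promoters the sperm and ES cell ratios had a Spearman rho of 0.426, a description over promoters that share their DNA sequence and their flanks' depth.

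**Figure D1:**
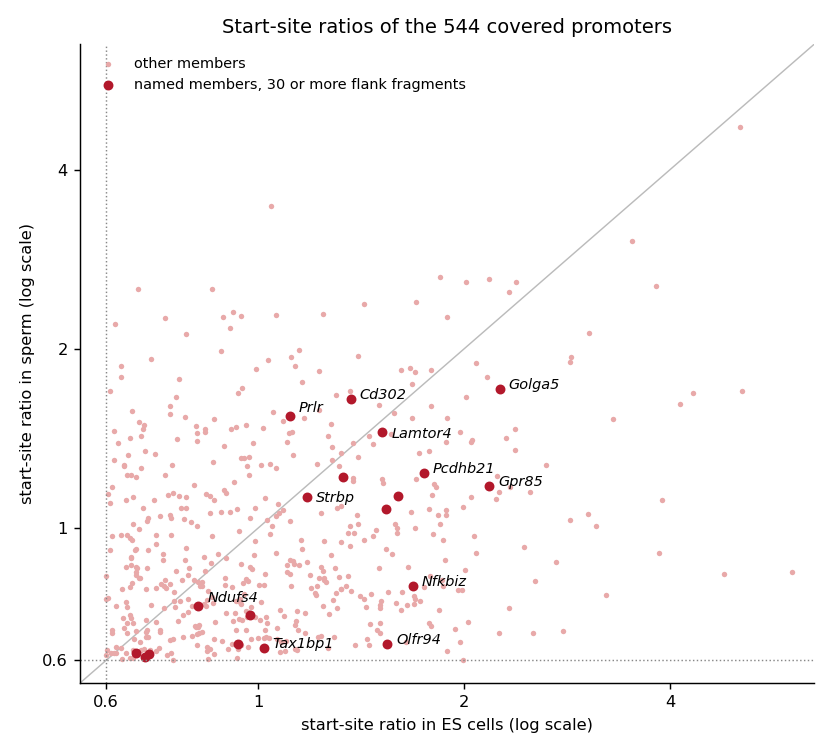
Start-site ratio in sperm (vertical axis) against ES cells (horizontal axis), both on log scales without units, for the 544 members, 1 point each; dark points are the deepest and the highest named members, dotted lines mark the 0.60 limit and the grey line equality. Golga5 stands at 1.71 in sperm and 2.25 in ES cells, and Olfr94 at 0.639 in sperm and 1.54 in ES cells.

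The member with the most flank signal was Strbp, which encodes an RNA-binding protein of spermatids, with its start site at chr2:37502805 in mm9. It had 16.2 fragments within 200 bp against 71.7 in the flanks in sperm, a ratio of 1.13 (0.603 to 1.93), and 1.18 in ES cells (0.700 to 1.98). The values of the 2 libraries lie within each other's intervals. The next deepest members were nearer the limit in sperm. Atg4c, a protease gene of autophagy, had 0.714 in sperm (0.332 to 1.55) and 0.972 in ES cells (0.461 to 1.75). Ndufs4, a subunit of respiratory complex I, had 0.740 in sperm (0.321 to 1.66) and 0.818 in ES cells (0.358 to 1.53). Nfkbiz, a nuclear regulator of NF-κB targets, had 0.801 in sperm (0.316 to 1.63) and 1.68 in ES cells (0.883 to 2.99). Eya1, a developmental phosphatase and transcriptional co-activator, had 0.616 in sperm and 0.663 in ES cells. Zfp708, Enkur, Tax1bp1, Ptdss1 and Olfr94 had 0.606 to 0.639 in sperm, with ES cell ratios of 0.684 for Enkur, a calcium channel-associated protein of sperm, and 1.54 for Olfr94, an odorant receptor.

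Among members with 30 or more flank fragments in both libraries, ranked by the smaller of their sperm and ES cell ratios, the first was Golga5, a Golgi tether gene, at chr12:103708119 in mm9. Its ratio was 1.71 in sperm (0.790 to 3.28) and 2.25 in ES cells (1.27 to 3.70). Gpr85, an orphan receptor gene of neurons, had 1.18 in sperm (0.582 to 2.29) and 2.18 in ES cells (1.19 to 3.78). Lamtor4, part of the Ragulator complex that anchors mTORC1 signalling at lysosomes, had 1.45 in sperm (0.608 to 3.12) and 1.52 in ES cells (0.841 to 2.70). Cd302, a C-type lectin receptor, had 1.65 in sperm (0.685 to 3.26) and 1.37 in ES cells (0.715 to 2.45). Prlr, the prolactin receptor, had 1.54 in sperm (0.727 to 3.50) and 1.11 in ES cells (0.507 to 2.10). Fgfbp3, Zfp58 and the protocadherins Pcdhb21 and Pcdhb22 had 1.08 to 1.24 in sperm and 1.33 to 1.75 in ES cells. The order among these genes is not resolved, since their intervals overlap in each cell type.

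The rule used the members' signal within 200 bp of the start site and their flanks in the standard libraries. Every ratio here divides by those same flanks, so the choice of members also bears on the stretches farther out. Between 200 and 600 bp downstream the members' ratio was 0.582 in sperm (0.551 to 0.615) and 0.837 in ES cells (0.806 to 0.869). Inside the 200 bp to each side that the rule used, the members' ratio was 1.17 upstream in both cell types. Over the first 200 bp downstream it was 0.806 in sperm and 1.08 in ES cells. Promoters covered in sperm only had 0.478 in sperm between 200 and 600 bp downstream and 0.856 within 200 bp, and those covered in ES cells only had 0.735 and 0.902 in ES cells. The promoters under the limit had 0.280 in sperm and 0.441 in ES cells in that stretch. Lower signal after the start site was thus found in the other covered classes as well, and which part of it the choice of members sets was not tested.

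**Figure D2:**
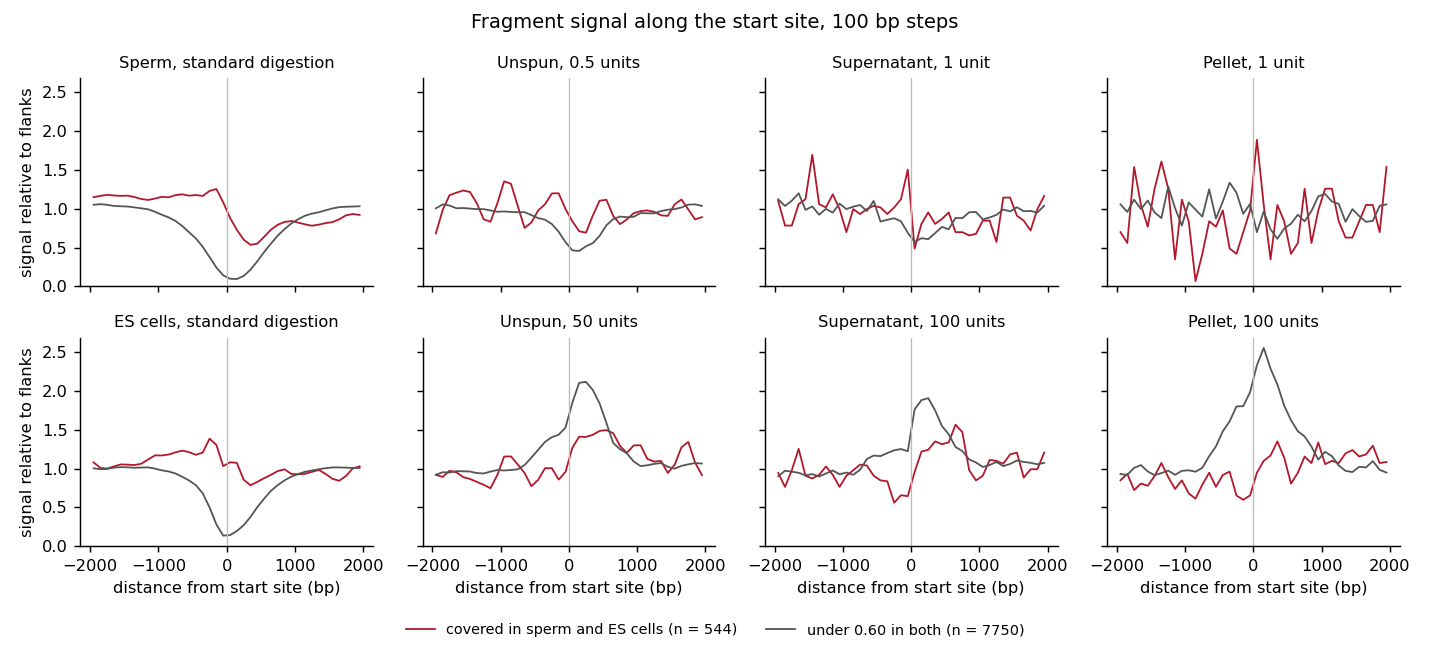
Mean fragment signal relative to the flanks (no unit) against distance from the start site in bp, in 100 bp steps, for the 544 members (red) and the 7750 promoters under the limit in both (grey), in 8 libraries of 1 sample each without error bars. The rule chose members without a gap in the standard libraries; at the highest MNase doses, which it did not use, members stand lower at the start site than the promoters under the limit, such as 0.825 against 2.17 within 200 bp in the pellet at 100 units.

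The 12 titration libraries were not used by the rule and show the members' start sites in other digests of sperm. The members' pooled start-site ratio lay between 0.801 and 1.28 at every dose, while that of the promoters under the limit was 2.25 to 3.15 times as high at the highest dose as at the lowest. In the unspun series the members' ratio was 0.937 (0.740 to 1.16) at 0.5 units, 1.09 at 2 units, 1.00 at 10 units and 1.12 (0.870 to 1.45) at 50 units. The promoters under the limit had 0.549 (0.512 to 0.590), 0.919, 1.00 and 1.73 (1.63 to 1.83) at the same doses. The members were thus above the promoters under the limit at the lowest dose and below them at the highest, in both cases with intervals that did not overlap.

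In the supernatant the members' ratio was 0.980 (0.739 to 1.30), 0.961, 0.801 and 0.869 (0.693 to 1.08) at 1, 5, 20 and 100 units. The promoters under the limit had 0.681 (0.625 to 0.740), 0.906, 0.949 and 1.53 (1.45 to 1.61). In the pellet the members' ratio was 1.15 (0.765 to 1.69), 1.28, 0.844 and 0.825 (0.642 to 1.05) over the same doses. The promoters under the limit had 0.916 (0.809 to 1.04), 1.08, 1.30 and 2.17 (2.06 to 2.29) in the pellet. At 100 units the intervals of members and of these promoters did not overlap in either fraction, whereas at 1 unit they overlapped in both. The overlap in the supernatant is a bare touch, and with 20 bp bins there was none, with 0.933 (0.780 to 1.11) at members and 0.684 (0.650 to 0.720) at the promoters under the limit. Highest over lowest dose, the members' ratio was 1.20-fold unspun, 0.887-fold among supernatants and 0.715-fold among pellets, against 3.15-fold, 2.25-fold and 2.37-fold at the promoters under the limit. In each series the members' intervals at the lowest and the highest dose overlapped, so no difference between those doses was resolved for them. Its direction turns with 20 bp bins, which gave 0.933 at 1 unit and 0.974 at 100 units in the supernatant, and 1.02 and 1.31 in the pellet. In the 1-unit libraries an isolated fragment covers fewer bins than in the other count tables, and the part of this in the 1-unit ratios was not tested.

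**Figure D3:**
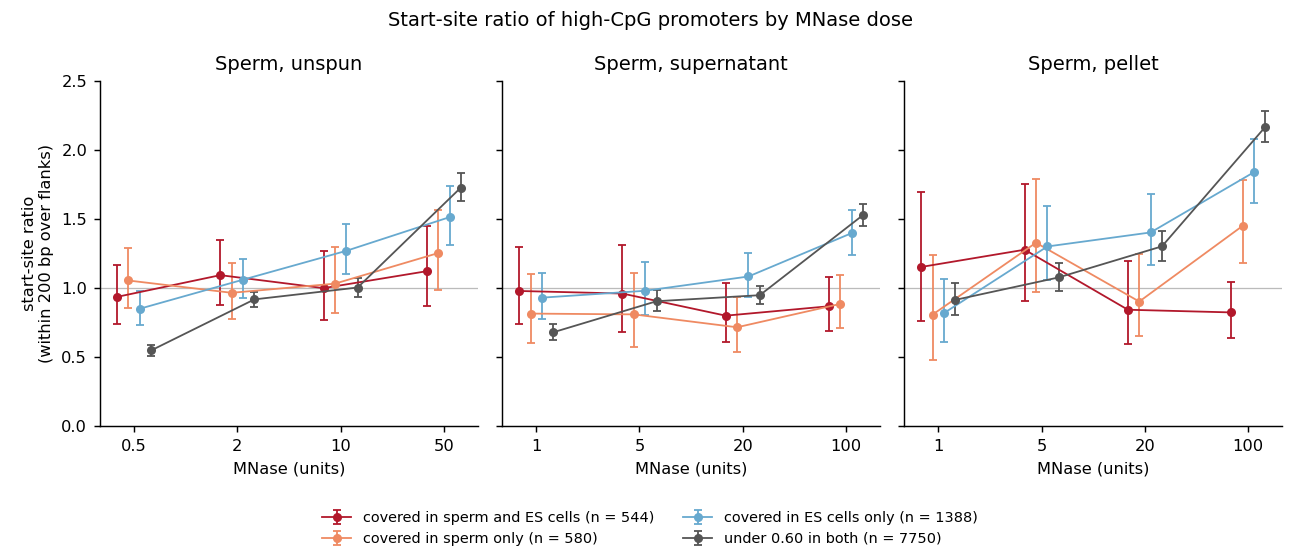
Pooled start-site ratio (no unit) against MNase units in the unspun, supernatant and pellet series for 4 classes of high-CpG promoters, 1 library per dose; bars are exact 95% intervals on fragment equivalents. At the highest dose members stand at 1.12, 0.869 and 0.825 in the 3 series, against 1.73, 1.53 and 2.17 for the promoters under the limit in both.

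Against the other covered classes the members stood apart less clearly. At 50 units unspun, members had 1.12, promoters covered in sperm only had 1.25 (0.985 to 1.56) and those covered in ES cells only had 1.51 (1.31 to 1.74), all overlapping. At 100 units in the supernatant, members had 0.869, those covered in sperm only 0.886 (0.714 to 1.09) and those covered in ES cells only 1.40 (1.24 to 1.57), the last above the members beyond the intervals. In the pellet at 100 units, members had 0.825, below those covered in sperm only at 1.45 (1.18 to 1.78) and those covered in ES cells only at 1.84 (1.62 to 2.08). In the pellet at 100 units the members' interval thus lay below those of all 3 other classes. The pellet value depends on the bin width and on the deepest promoters. It was 1.31 (1.12 to 1.51) with 20 bp bins, against 2.08 at the promoters under the limit, and 4.05 (1.19 to 14.9) over the 18 members with a flank sum of 880 or more, against 3.18 (2.84 to 3.56) at the promoters under the limit of that depth. Among the deepest promoters the intervals overlap, so the pellet difference was not resolved there.

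Over the 200 bp upstream of the members' start sites the ratio was lower at the highest dose than at the lowest in all 3 series, and at 200 to 600 bp downstream it was higher in all 3. Of these 6 differences 1 exceeded the intervals. Over the 200 bp upstream the members had 1.31 (0.916 to 1.81) at 1 unit and 0.651 (0.447 to 0.904) at 100 units in the supernatant, without overlap. Unspun, the same stretch had 1.10 at 0.5 units and 0.908 at 50 units, and in the pellet 0.839 at 1 unit and 0.626 at 100 units, with overlapping intervals. Between 200 and 600 bp downstream the members' ratio was 1.46 (1.15 to 1.82) at 50 units unspun, 1.31 (1.08 to 1.57) at 100 units in the supernatant and 1.12 (0.897 to 1.38) in the pellet. At the lowest doses that stretch had 0.956 unspun, 0.895 in the supernatant and 0.664 in the pellet, each with an interval reaching that of the highest dose. The promoters under the limit had 1.89, 1.66 and 1.95 in this downstream stretch at the highest doses. Upstream within 200 bp they had 1.48, 1.24 and 1.89 at those doses, in each series above the members' interval. Farther upstream, at 600 to 200 bp before the start site, the members had 1.01 at the lowest and 0.910 at the highest dose unspun, 1.00 and 0.789 in the supernatant, and 0.664 and 0.825 in the pellet, so the direction there differed between series.

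The members' share of all fragments within 1000 bp of deep start sites was set against their 5.30% of promoters. Among the titration libraries it lay above that value beyond its interval at 0.5 units unspun, and below it at 100 units in the pellet. Unspun it was 5.96% (5.46 to 6.49) at 0.5 units, 5.65% at 2 units, 5.43% at 10 units and 4.90% (4.45 to 5.40) at 50 units. In the pellet it was 5.32% at 1 unit, 5.56% at 5 units, 5.09% at 20 units and 4.54% (4.14 to 4.97) at 100 units. The supernatant held 5.50%, 5.61%, 5.47% and 5.20% over its doses, with intervals that include 5.30% at each dose. The standard libraries held 6.68% in sperm and 6.66% in ES cells. Members were chosen by high signal within 200 bp in these libraries, so these shares are not read against 5.30%. How much of these differences comes from the start site itself was not tested.

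At this depth single promoters were seen rarely in the titrations. A fragment's worth of signal within 200 bp was present at 38 members (6.99%) at 0.5 units unspun, against 4.67% of all deep promoters, and at 32 members (5.88%) at 50 units, against 6.97%. In the supernatant the counts were 27 members (4.96%) at 1 unit, against 3.75%, and 46 members (8.46%, 6.26 to 11.1) at 100 units, against 12.1%. In the pellet they were 20 members (3.68%) at 1 unit, against 2.45%, and 40 members (7.35%, 5.30 to 9.88) at 100 units, against 12.3%. At 100 units the background percent lay above the members' interval in both fractions. Summed over the 12 libraries, the signal within 200 bp rounded to 0 fragment equivalents at 79 members, some of which, such as BC030500, held a trace. The same count over all deep promoters was not made. At these depths a sum of 0 does not show that a start site was empty.

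The members with the most titration signal were Psmb8, a subunit of the immunoproteasome, Uqcr11, a subunit of respiratory complex III, and Lrfn5, a synaptic adhesion gene. Psmb8 had 7.6 fragment equivalents in all, of which 1.5, 4.00, 1.33 and 0.67 came from the pellet at 1, 5, 20 and 100 units and 0.14 from the unspun library at 10 units. Its signal therefore lay almost wholly in the pellet. Uqcr11 had 7 in all, 3 in the supernatant and 4 in the pellet, both at 1 unit. Lrfn5 was spread most widely, with 6.6 fragment equivalents in 8 libraries and no library above 1.33. Ptgdr, a prostaglandin D2 receptor gene, had 6.3, of which 3.67 lay in the pellet at 20 units. Pcdh10, a non-clustered protocadherin, had 5.6 in 6 libraries. Ccn3, Tmco6 and Pik3cd, the last a catalytic subunit of phosphoinositide 3-kinase, had 5.3 each. These are counts of a few fragments and give no dose trend for any gene.

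Covered start sites were counted by gene list and read against the 5.30% of all deep promoters, with no test of any list. Among clustered protocadherins, neuronal adhesion genes with 1 promoter per variable exon, 13 of 43 start sites were members (30.2%). The family's median ratio was 0.495 in sperm and 0.754 in ES cells, and 7 of its 43 were under the limit in both. Pcdha9 had 1.84 in sperm (0.926 to 3.72) and 1.79 in ES cells (0.774 to 3.79), and Pcdhb15 had 1.70 in sperm (0.599 to 4.07) and 5.10 in ES cells (2.21 to 11.3). These genes are near-copies of each other, and the treatment of reads with several matches was not stated in the labels. Among keratin genes 4 of 8 start sites were members, Krt26, Krt2, Krt27 and Krt87, and among chemosensory receptors 2 of 5, Olfr94 and Olfr38. Lists of 8 and 5 start sites are too short to read further.

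Hox genes, the homeodomain regulators of the body axis, had 8 of 35 start sites covered (22.9%), with members from all 4 clusters. Hoxa7 had 2.52 in sperm (1.18 to 5.46) and 0.857 in ES cells (0.278 to 2.44). Hoxd4 had 1.83 in sperm (0.625 to 4.31) and 1.70 in ES cells (0.846 to 2.97). Hoxc6 had 1.72 in sperm and 0.949 in ES cells, and Hoxc11 had 0.859 in sperm and 1.65 in ES cells. The other 4 were Hoxa2, Hoxb3, Hoxb5 and Hoxb8, so the cell type with the higher ratio differed from gene to gene. Developmental regulators outside the Hox clusters had 12 covered (10.6%), among them Six3, Olig3, Foxd4 and Gata3. Foxd4, a forkhead factor, had 1.84 in sperm (0.714 to 3.81) and 1.61 in ES cells (0.667 to 3.50). Of the Wnt, Bmp, Fgf and hedgehog ligands 1 of 43 was covered (2.33%), which was Shh, with 0.983 in sperm and 1.38 in ES cells.

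Immune signalling genes, namely cytokines, chemokines and their receptors, had 10 of 50 covered (20.0%). Il7, the lymphoid growth factor, had 0.839 in sperm (0.295 to 2.06) and 1.11 in ES cells (0.504 to 2.49). Tnfaip8l2, which the list counts among its 10 although it is no cytokine, chemokine or receptor, had 0.853 in sperm and 0.979 in ES cells. Il12a, a subunit of interleukin-12, had 0.616 in sperm and 0.641 in ES cells. Proteasome subunits and assembly factors had 6 of 41 covered (14.6%), including Psmc4 and the immunoproteasome genes Psmb8 and Psmb10. Psmb10 had 0.907 in sperm (0.150 to 2.68) and 2.08 in ES cells (1.14 to 3.71). Neurotransmitter receptors had 6 of 59 covered (10.2%), of which Chrna5, a nicotinic receptor subunit, was deepest, with 0.808 in sperm and 0.654 in ES cells. Glra1, a glycine receptor subunit, had 0.903 in sperm and 1.57 in ES cells.

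Ribosomal protein genes had 7 of 71 covered (9.86%), and Rpl24 stood at 0.666 in sperm and 0.612 in ES cells. Genes of the mitochondrial ribosome and respiratory chain had 11 covered (7.91%), among them Ndufs4, Mrpl46, Ndufaf1 and Mrps11. Mrpl46 and Mrps11 start next to each other at chr7:85927975 and chr7:85928016 in mm9, so their ratios count much of the same DNA. Solute carriers had 15 of 214 (7.01%), ion channel subunits 5 of 78 (6.41%) and zinc finger proteins 9 of 220 (4.09%). No histone gene was covered, of 38 measured, although the list's median ratio was 0.412 in sperm and 0.168 in ES cells.

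Germ cell and meiotic genes had 2 of 38 covered (5.26%), Hormad2, a meiotic chromosome axis protein, with 0.605 in sperm and 0.649 in ES cells, and Stra8, the retinoic acid-induced meiotic entry factor, with 0.605 in sperm and 0.930 in ES cells. Tekt4, a tektin of the sperm flagellum, was 1 of 10 spermatid genes, with 1.67 in sperm (0.342 to 4.55) and 1.30 in ES cells (0.384 to 3.64). Imprinted genes had 3 of 34 covered (8.82%), H13, Usp29 and Cdkn1c. H13, a signal peptide peptidase gene, had 0.858 in sperm (0.320 to 2.27) and 0.792 in ES cells (0.254 to 1.73). Of the pluripotency genes 1 of 13 was covered, the Nodal antagonist Lefty2, with 1.55 in sperm and 0.743 in ES cells, and of 8 X-linked cancer-testis and Rhox genes none was.

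**Figure D4:**
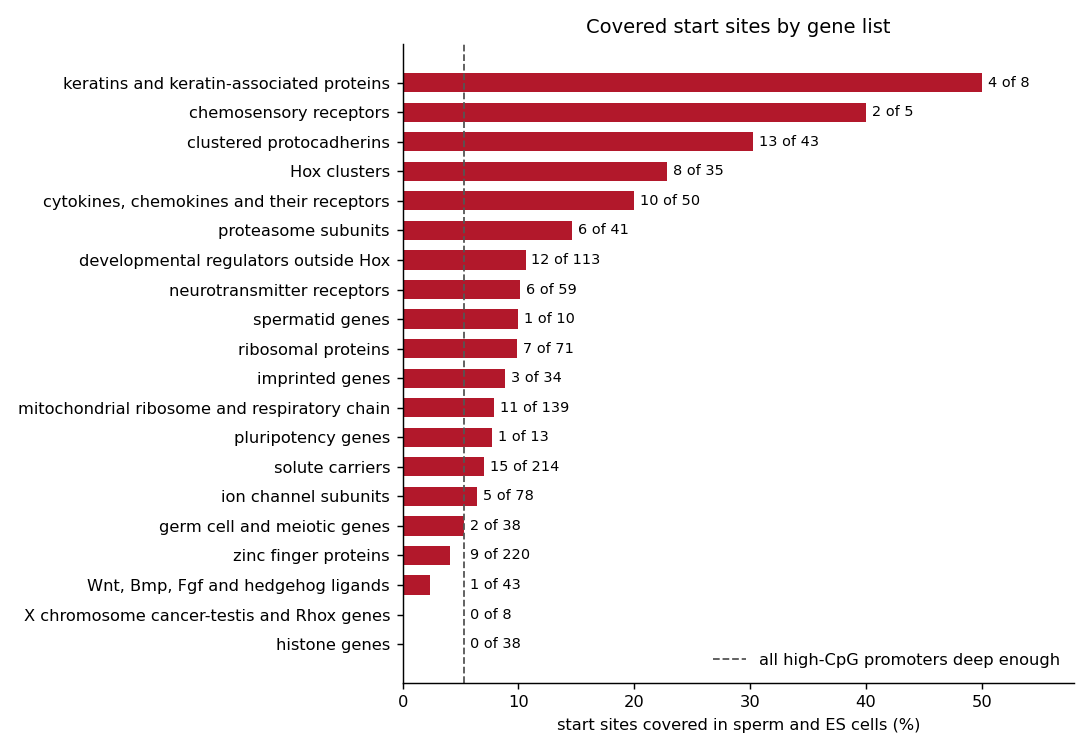
Percent of start sites covered in sperm and ES cells for 20 gene lists, with the number covered of the number measured beside each bar; the dashed line is the 5.30% of all deep high-CpG promoters. Clustered protocadherins lie at 30.2% and Hox genes at 22.9%, and histone genes at 0.

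By position, 35 members (6.43%) had another start site of the same gene within 2000 bp, against 3.42% of all deep promoters, and 28 (5.15%) had one farther away, against 3.95%. A start site of another gene lay within 2000 bp of 85 of the 544 members (15.6%), and of 1743 of the 10262 deep promoters. Chromosome 7 held 57 members (10.5%), against 7.17% of all deep promoters, and chromosome 1 held 16 (2.94%), against 5.60%. The more distant start sites of members' genes were taken from any CpG class. Some lie near enough to share flank DNA with the member, such as that of Kcne3, 2013 bp away, and Pik3cd gave more than 1. The 31 with enough flank signal had a median ratio of 0.857 in sperm and 0.663 in ES cells. Of these, 12 (38.7%) were covered in both and 7 (22.6%) were under the limit in both. The 352 more distant start sites of genes whose promoter is under the limit, likewise of any CpG class, had a median of 0.451 in sperm and 0.619 in ES cells. Of them 29.3% were covered in both and 39.2% were under the limit in both. Rfx4, a regulatory factor of the brain and testis, was covered at both start sites, with 1.47 in sperm and 2.37 in ES cells at the member and 1.03 in sperm and 1.09 in ES cells at the other, 82100 bp away. Tpm1, a tropomyosin gene, had 0.692 in sperm and 1.78 in ES cells at the member, and 0.183 in sperm and 0.00920 in ES cells at a start site 5342 bp away. Nfkbiz likewise had 0.148 in sperm and 0.162 in ES cells at its other start site, 16503 bp away.

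Promoter sequence was available in the RefSeq table for 406 members (74.6%) and for 79.1% of all deep promoters. Because fewer than 80% of either set had a value, a comparison of GC or CpG content between them is void, and the following values describe the matched genes alone, averaged over the windows of a gene. The 406 members had a median GC content of 54.3% (quartiles 50.0% and 58.3%), 13 CpG dinucleotides in 300 bases and a CpG observed-over-expected ratio of 0.591 (quartiles 0.406 and 0.758). The CpG observed-over-expected ratio was under 0.60 at 207 of the 406 members (50.99%). It was under 0.60 at 1731 of the 8115 deep promoters with a sequence (21.33%), and no direction is read from these shares. Motifs were searched on both strands of the 531 windows of the members' genes. Their shares stand beside those of the 10032 windows of all deep high-CpG promoters' genes and of all RefSeq promoters; like the GC values they cover under 80% of the promoters, so no direction is read from them. The TATA box letters TATAAA stood in 67 of the 531 members' windows (12.6%) and in 652 of the 10032 windows (6.499%). They stood in 13.6% of all RefSeq promoters. The Sp1-type letters GGGCGG stood in 233 of the members' windows (43.9%), in 6725 of the 10032 (67.04%) and in 35.7% of all RefSeq promoters. CCAAT stood in 39.7% of the members' windows, in 37.2% of the deep high-CpG ones and in 37.4% of all. The ETS-type letters CCGGAAG stood in 16.2% at members, in 17.6% at deep high-CpG promoters and in 8.86% of all. The NRF1-type letters GCATGCGC stood in 3.39% at members, in 5.69% at deep high-CpG promoters and in 2.71% of all. The E-box CACGTG stood in 9.23% at members, in 10.4% at deep high-CpG promoters and in 7.15% of all. None of these motifs contains another, and a match describes letters, not a bound factor.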

How the data were processed

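Per the submitters' processing notes, the reads were processed with Bowtie and SAMtools 0.1.16 on mm9; read filters and the origin of the start sites were not stated in the labels. The authors deposited a signal for each start site in 200 bins, not scaled to depth: a pileup of fragments of 135 to 165 bp in 20 bp bins, per the table names, for the standard and unspun libraries, and a coverage of whole-number reads per bin for the supernatant and pellet series. Those bins were read as 50 bp at every dose of both series. At 100 units, windows that share DNA then held equal values in 100% of only 84 bins in the supernatant and 38 in the pellet. At the 20 bp of the headers they did so in 7.62% of 669 bins in the supernatant and 5.24% of 439 in the pellet. The bin width at the other doses was not checked. Windows run along the strand.

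An isolated run of signal, read as 1 fragment, sums to 22 over 14 bins in the unspun pileups. It sums to 3 in the count tables, or 2 in the pellet at 1 unit. The standard libraries were too deep for isolated runs and took the 22 of the unspun library at 0.5 units. Their fragment counts and intervals rest on that value. Sums were divided by these units to give fragment equivalents. Ratios have exact (Clopper-Pearson) 95% intervals on fragment equivalents. A check on simulated independent fragments used a centre narrower than 200 bp, inside a wider enriched stretch, so it does not cover the windows used here. Without molecular identifiers, these intervals reflect counting error alone. Calculations used Python 3.11.15, numpy 2.4.6, pandas 2.3.3 and SciPy 1.17.1. No test was made, because each group is 1 library.

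Named members are the 10 deepest, the 10 with the highest smaller ratio among those with a flank sum of 660 or more, those at the limit, the 8 with the most titration signal and up to 4 of each gene list; other names in a list were added after their values were seen. The members and lists were chosen with earlier results of these data known, and the histone list was narrowed after H13, which is no histone gene, had matched its pattern. RefSeq transcripts gave a symbol to 541 members through a GRCm38.p6 table, used for names and promoter sequences. Of 17 samples, 3 were not analysed here, namely unspun ES cells, sonicated input of sperm and histone H3 immunoprecipitation of sperm. For the pellet at 5 and 20 units the labels' description gives other units than the title, which was followed. Alternatives covered the limits, window widths, flanks, bins and neighbouring start sites.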

Additional observations from a re-analysis of the deposited data

How the results depend on the processing

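No paired analysis was possible because each group holds 1 library. The number of members was 832 at a limit of 0.50, 301 at 0.75, 294 and 18 at flank sums of 440 and 880, and 296 when each flank alone had to give 0.60; a centre of 100 bp gave 425, and start sites within 2000 bp counted once gave 536. Of 80 alternatives of the titration ratios, 68 stayed within the interval of the value given in the report. The 18 members at a flank sum of 880 gave 0.595, 1.44, 0.675 and 0.773 unspun from 0.5 to 50 units, 0.0847, 0 and 0 in the supernatant from 1 to 20 units, and 3.33, 3.64 and 4.05 in the pellet at 1, 5 and 100 units; fewer promoters widen each interval. The pellet gave 0.814 at 5 units with members at 0.75 or more, and 1.31 at 100 units with 20 bp bins; the cause was not tested. Within 100 bp the share of members with signal was 0.184% and 0.551% unspun at 0.5 and 50 units. It was 2.02% and 3.31% in the supernatant at 1 and 100 units, and 2.02% and 2.39% in the pellet. An isolated unspun fragment spreads its 22 over about 14 bins, more than that window holds. A single fragment therefore falls short of the limit there, so the unspun drop was set by the measure. At 3 fragments' worth the share was 0% in both unspun libraries, 0.184% and 0% in the supernatant, and 0.551% and 0% in the pellet. The cause of the other changes was not tested. At a flank sum of 880 the median GC was 50.6%, CpG observed over expected 0.675, TATAAA 8.33% and GGGCGG 33.3%. The titration tables hold few fragments per promoter, so no single member can be followed over dose.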
